A study of Homo sapiens with 8 samples.

Results

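The genes described here are 10 immediate early transcription factors: FOS, FOSB, FOSL2, JUN, JUNB, JUND, EGR1, EGR2, ATF3 and IER2. They were chosen by gene symbol, and all 10 were among the 16726 genes listed for each cell line. Messenger RNA was sequenced from NB4 and MM6 (MonoMac 6), established human acute myeloid leukaemia lines that the labels both call acute monocytic leukemia. Each line was transduced with a pLKO.1 lentivirus carrying either 1 hairpin against METTL14 (shM14, labelled shM14-#2) or a scrambled control hairpin (shNS). This gives 4 groups of 2 libraries: NB4 shNS, NB4 shM14, MM6 shNS and MM6 shM14. All cells, controls included, went through 2 passages under puromycin at 0.5 µg/mL before RNA was taken. METTL14 is a subunit of the complex that writes N6-methyladenosine on RNA. Only 1 hairpin was used, and whether replicates came from separate cultures is not stated in the labels. The p-values therefore speak only for the scatter among these libraries, which may be technical.

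Immediate early genes are switched on within minutes of a stimulus, without new protein synthesis, and their messenger RNAs are short-lived. Growth factor signals reach many of them through the MAP kinase cascade, which activates the ELK factors that sit with SRF on CArG boxes in the promoters. FOS and JUN proteins pair through leucine zippers to form AP-1, while EGR proteins bind GC-rich DNA through zinc fingers. In myeloid cells AP-1 and EGR factors are known for their part in monocyte and macrophage differentiation.

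The promoters of 3 members are shown because together they hold the kinds of motif described next: EGR1 for CArG boxes, FOS for a TATA box, JUND for a CRE. Each is the 250 bases before the RefSeq start site in GRCh38.p14, 5′ to 3′ on the strand of the gene. EGR1 is at chr5:138465229-138465478 (plus strand), FOS at chr14:75278578-75278827 (plus strand) and JUND at chr19:18281623-18281872 (minus strand). Capitals mark every match, on either strand, to the motifs that follow.
EGR1: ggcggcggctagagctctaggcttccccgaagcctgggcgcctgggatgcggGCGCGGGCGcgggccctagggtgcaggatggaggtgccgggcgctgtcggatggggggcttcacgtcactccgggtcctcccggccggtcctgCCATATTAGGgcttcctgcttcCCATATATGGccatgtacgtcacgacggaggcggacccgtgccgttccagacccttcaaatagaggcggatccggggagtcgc
FOS: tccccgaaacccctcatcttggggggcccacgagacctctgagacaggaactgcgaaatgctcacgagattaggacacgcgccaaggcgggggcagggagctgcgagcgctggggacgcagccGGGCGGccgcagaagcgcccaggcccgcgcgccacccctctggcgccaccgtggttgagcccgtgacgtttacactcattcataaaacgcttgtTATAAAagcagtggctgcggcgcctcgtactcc
JUND: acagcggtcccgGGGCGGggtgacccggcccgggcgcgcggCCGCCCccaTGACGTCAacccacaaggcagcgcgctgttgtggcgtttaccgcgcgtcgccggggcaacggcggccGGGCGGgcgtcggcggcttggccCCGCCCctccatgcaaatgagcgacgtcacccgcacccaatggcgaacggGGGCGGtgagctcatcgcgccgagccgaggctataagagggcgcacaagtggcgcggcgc
The motifs searched were the CArG box, the CRE (TGACGTCA), the AP-1 site (TGANTCA), the EGR site (GCGNGGGCG), the SP1 site (GGGCGG) and the TATA box (TATAAA). EGR and SP1 matches can share bases, although none did in these 3 promoters. EGR1 held 2 CArG boxes, at -105 to -96 and -83 to -74 from the start site, and an EGR site at -198 to -190. A CArG box was found in 1.16% of 35116 promoter windows of this length, and among the members also in 1 window of EGR2. Bases more than 250 before the start site were not searched, so a CArG box further upstream, in FOS or another member, would be missed. The EGR site was found in 8.41% of windows. FOS had a TATA box at -33 to -28, as had FOSB at -30 to -25 and JUNB at -31 to -26. The same letters were in 1 window of ATF3, but far from the start site at -230 to -225, and in 10.7% of all windows at any position. JUND carried the CRE at -200 to -193, which 1.65% of windows hold. The SP1 letters were present in 8 members and in 42.6% of windows. The AP-1 letters were in 6.57% of windows and in no member's window.

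Depth was 23272126 to 28814911 reads per library over the listed genes. METTL14 fell in NB4 from 14.1 and 12.5 RPKM (reads scaled to gene length and library depth) to 8.35 and 8.35 RPKM (log2 change -0.61, SE 0.07, limma adjusted p = 0.0024). In MM6 it was 12.5 and 13.4 RPKM with shNS and 6.54 and 6.55 RPKM with shM14, but did not pass the test there (-0.88, SE 0.13, adjusted p = 0.088); with all 8 libraries in 1 model it did (adjusted p = 0.0032). Of 5 promyelocyte granule genes, MPO was higher in NB4 (2117 to 2490 against 35.1 to 103 RPKM), while ELANE, AZU1, PRTN3 and CTSG had higher group means in MM6, and the sum of the 5 was 2318 to 2666 RPKM in NB4 and 4368 to 5021 RPKM in MM6. Of 5 monocyte genes, CD14 (0.105 to 0.977 in NB4, 12.2 to 63.2 RPKM in MM6), LYZ, CD36 and FCGR1A had the higher levels in MM6 and CSF1R the higher in NB4 (3.96 to 6.46 against 1.29 to 3.76 RPKM). The T cell gene CD3D stood at 44.95 to 60.6 RPKM in NB4 and at most 0.0566 RPKM in MM6. The replicates of MM6 lay further apart than those of NB4: replicate 1 minus replicate 2 had an SD over genes of 0.353 (shNS) and 0.377 (shM14) in MM6, against 0.152 and 0.125 in NB4, in log2(RPKM + 1).

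In control NB4 cells IER2, a small nuclear protein of the early response, was the most abundant of the 10, at 78.5 ± 0.170 RPKM (SD, n = 2, as for the other levels in this paragraph). JUNB at 45.6 ± 3.96 and JUND at 44.1 ± 1.32 RPKM came next, and their libraries overlapped. They were followed by JUN at 27.7 ± 0.567, EGR1 at 21.1 ± 1.15 and FOSL2 at 15.3 ± 1.45 RPKM. ATF3, a stress-induced factor of the ATF/CREB family, was at 4.07 ± 0.0834 RPKM and overlapped FOS at 4.05 ± 0.348 RPKM. EGR2 at 1.44 ± 0.00802 and FOSB at 0.291 ± 0.0434 RPKM were lowest, FOSB resting on 23 and 35 reads. No other neighbours in this order overlapped.

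**Figure D1:**
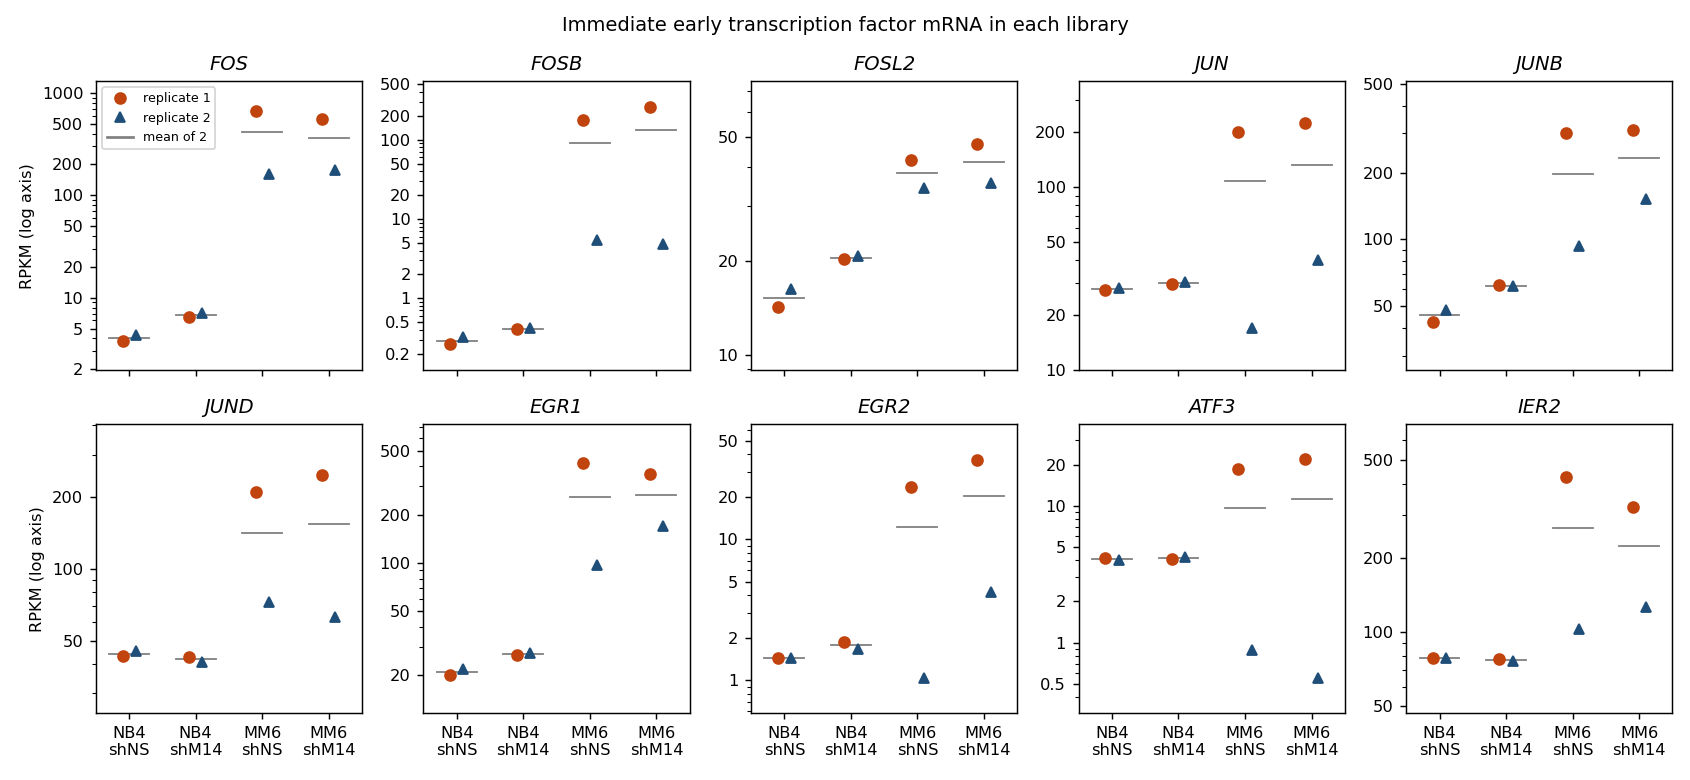
RPKM (log axis, a separate range for each gene) of the 10 factors in each of the 8 libraries; circles are replicate 1, triangles replicate 2, and grey lines the mean of 2. The NB4 replicates lie close together, while MM6 replicate 1 stands above MM6 replicate 2 in both groups for all 10 genes, least for FOSL2.

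Control MM6 cells held more mRNA of most of these factors than control NB4 cells. FOS, the founding partner of JUN in AP-1, was at 3.80 and 4.29 RPKM in NB4 and at 671 and 161 RPKM in MM6. EGR1 was at 20.3 and 21.9 RPKM in NB4 and at 419.8 and 97.8 RPKM in MM6. Both MM6 libraries lay above both NB4 libraries for these 2 genes, as for 7 of the 10 members and 42.1% of all tested genes, and the MM6 value depended strongly on which library was read. In bulk RNA, fewer cells making a transcript and less of it per cell cannot be told apart.

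Of the 10 members, 6 passed the limma test as higher in MM6 and none as lower (adjusted p under 0.05), where 34.3% of all tested genes were called higher and 36.8% lower. Differences are MM6 minus NB4 in log2(RPKM + 1). FOS differed by 6.03 (SE 0.65, adjusted p = 0.00085), EGR1 by 3.21 (SE 0.66, adjusted p = 0.0086) and FOSL2 by 1.26 (SE 0.14, adjusted p = 0.00087). FOSB (4.71), JUNB (1.86) and JUND (1.47) were called at adjusted p of 0.038, 0.027 and 0.042. IER2 was higher in both MM6 libraries but did not pass (1.40, adjusted p = 0.11). For JUN, EGR2 and ATF3 the lines overlapped: MM6 replicate 1 was above NB4 and replicate 2 below it. Without MM6 shNS replicate 1 the test called 6 members higher (FOS, FOSL2, JUNB, JUND, EGR1 and IER2, with backgrounds of 34.2% higher and 43.8% lower) and 3 lower: JUN at -0.68, EGR2 at -0.26 and ATF3 at -1.43. Without replicate 2, 9 of 9 tested were higher (background 32.1% higher, 46.4% lower), with JUN at 2.81, EGR2 at 3.32 and ATF3 at 1.94. Leaving out NB4 shNS replicate 1 gave 5.96 for FOS, 3.16 for EGR1 and 1.17 for FOSL2. FOSB (4.67), JUNB (1.78) and JUND (1.44) then no longer passed, and fewer of all genes were called in either direction.

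The makeup of AP-1 transcripts also differed between the lines. Among the 4 FOS family genes, FOSL2 made up 52.7% to 59.3% of the summed RPKM in the NB4 libraries and FOS 14.96% to 17.9%. FOSL1, a relative of FOSL2, gave 24.0% to 28.4% there. In MM6, FOS made up 62.8% to 79.4%. FOSB was at 19.4% and 29.5% in the MM6 libraries numbered 1 but at 2.60% and 2.18% in those numbered 2. The summed JUN family was 3.35 to 4.46 times the FOS family in NB4 and 0.784 to 1.15 times in MM6. JUN itself was 28.2% and 28.7% of its family in the MM6 libraries numbered 1 and 9.26% and 15.7% in those numbered 2, with JUNB leading in all 4. These shares are descriptions, without a test.

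**Figure D2:**
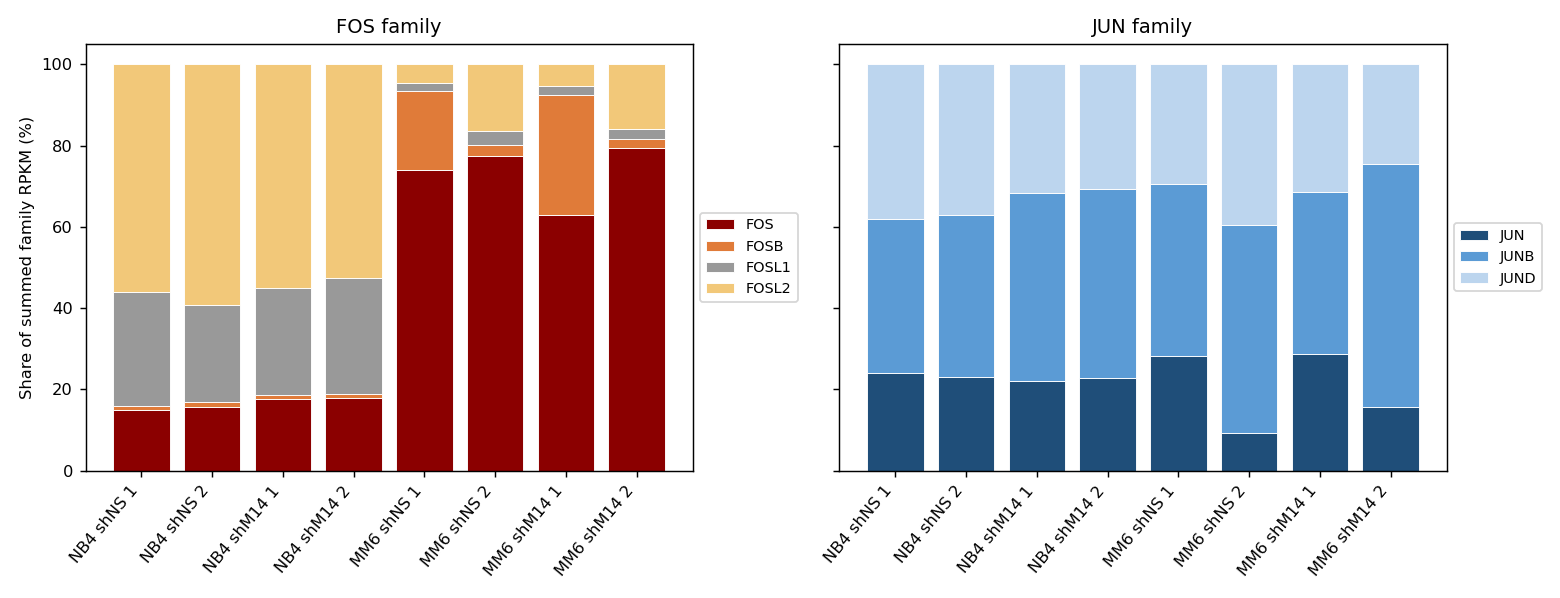
Share (%) of the summed RPKM of the FOS family (left) and the JUN family (right) taken by each gene, 1 bar per library. FOSL2 leads the FOS family in the 4 NB4 libraries and FOS in the 4 MM6 libraries, where the FOSB share is over 19% only in the libraries numbered 1.

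The MM6 replicates differed more in these genes than in most. FOSB was at 177 and 5.41 RPKM in the shNS libraries and at 261 and 4.86 RPKM in the shM14 libraries, ratios of replicate 1 to replicate 2 of 32.7 and 53.7. ATF3 was at 18.5 and 0.888 RPKM with shNS and at 21.9 and 0.549 RPKM with shM14. EGR2, a zinc finger factor related to EGR1, was at 23.3 and 1.04 RPKM with shNS and at 36.6 and 4.20 RPKM with shM14. In each case the library numbered 1 was the higher of its group.

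Replicate 1 exceeded replicate 2 by over 1 in log2(RPKM + 1), a fold of 2, in both MM6 groups for 9 of the 10 members. This held for 0.958% of the 11895 genes tested in MM6 (114 genes), and 10 genes had the opposite gap. Members, related lists and rules were chosen with earlier results of these data known. The counts of members and list genes with the gap are therefore not independent evidence. In NB4 the matching share was 0% of genes and no member, where the widest gap of a tested member was 0.18. Ranked by the smaller of its 2 gaps, FOSB was at rank 1 of all genes, ATF3 at 9, EGR2 at 16, JUN at 22 and FOS at 47. JUND, IER2, EGR1 and JUNB came at ranks 54, 66, 103 and 110. FOSL2, whose ratios were 1.24 and 1.33, was at rank 559. The members took 0.628% and 0.619% of all reads in the MM6 libraries numbered 1, 0.140% and 0.189% in those numbered 2, and 0.0568% to 0.0661% in NB4.

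The gap was shared by other early response genes: 27 of 37 tested in MM6 met the same rule, with median gaps of 1.77 (shNS) and 1.74 (shM14). Among them were DUSP1, a MAP kinase phosphatase, at 111 and 7.19 RPKM in the control libraries, KLF6 (gaps 4.03 and 3.85) and the nuclear receptor NR4A1 (3.51 and 4.06). By contrast 0 of 21 upstream kinases and SRF partners met it, with median gaps of -0.04 and -0.05. LYZ was also higher in the libraries numbered 1, at 9206 against 5836 RPKM with shNS and 14301 against 8164 RPKM with shM14. The sum of the 5 monocyte markers, nearly all of it LYZ, was 9239 against 5864 and 14490 against 8262 RPKM, with all 5 above 1 RPKM in every MM6 library. CD14 and CD36 were also higher in the libraries numbered 1 of both groups, and CSF1R and FCGR1A were lower in them. The part of any of these in the gap was not tested. The labels give no date, handling or batch for the libraries.

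**Figure D3:**
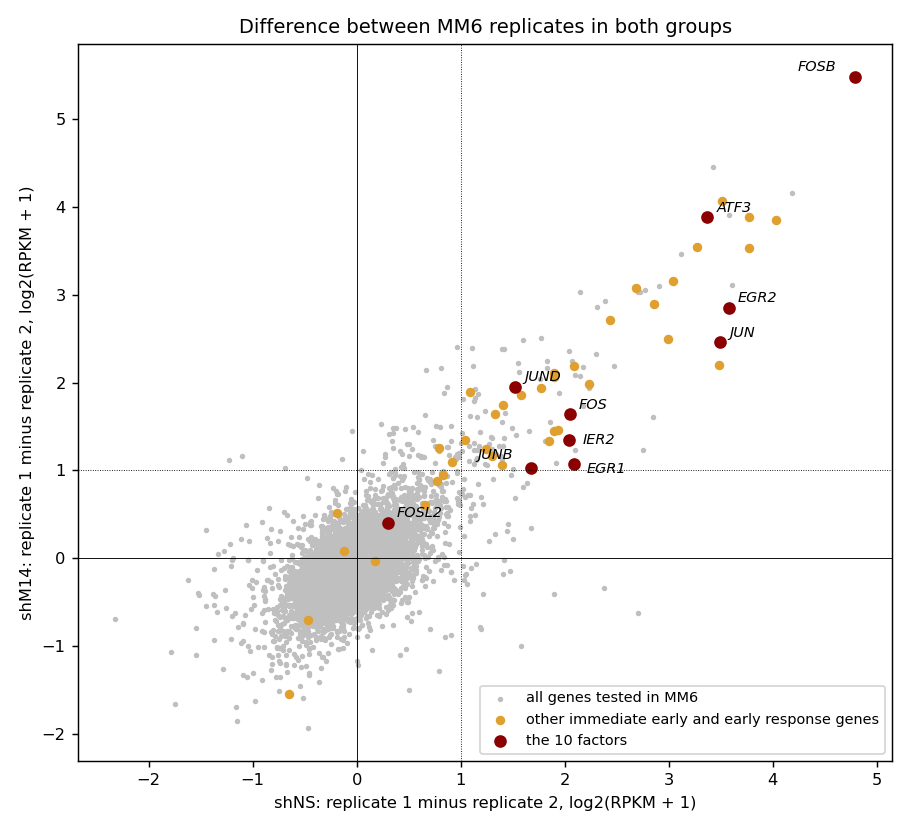
For each gene tested in MM6, replicate 1 minus replicate 2 in log2(RPKM + 1) in the shNS group (horizontal) and in the shM14 group (vertical); dotted lines mark a gap of 1, red points the 10 factors and orange points the other early response genes. All factors but FOSL2 lie beyond 1 on both axes, and FOSB lies furthest out.

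In NB4, 5 of the 9 testable members were higher with the METTL14 hairpin, each by less than 2-fold, and none was called lower. FOS was at 3.80 and 4.29 RPKM with shNS and at 6.49 and 7.06 RPKM with shM14, with 192 to 392 reads per library. Both knockdown libraries were above both controls, a ratio of mean RPKM of 1.67. The limma change was 0.62 in log2(RPKM + 1) (SE 0.07, adjusted p = 0.0026). The libraries numbered 2 had the higher FOS of each group; they also had more ELANE, a granule protease at 1599 to 2410 RPKM in MM6, at 6.83 and 6.45 against 0.0462 and 0.0387 RPKM. PRTN3, AZU1 and LYZ, also higher in MM6, differed little between NB4 libraries numbered 1 and 2. In that order PRTN3 was at 46.1 and 44.1 RPKM with shNS and at 127 and 129 RPKM with shM14. AZU1 was at 79.7 and 80.6, then 66.9 and 66.8 RPKM, and LYZ at 19.8 and 21.4, then 83.4 and 84.6 RPKM. The part of the ELANE difference in the FOS values was not tested. The FOS change was 0.64 within the libraries numbered 1 and 0.61 within those numbered 2.

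JUNB, a JUN paralog, was at 42.8 and 48.4 RPKM in the controls and at 62.4 and 61.7 RPKM in the knockdown (0.44, SE 0.07, adjusted p = 0.0069). FOSL2 rose from 14.2 and 16.3 to 20.3 and 20.8 RPKM (0.41, SE 0.07, adjusted p = 0.0096). For EGR1 the controls were at 20.3 and 21.9 RPKM and the knockdown libraries at 26.6 and 27.8 RPKM (0.35, SE 0.06, adjusted p = 0.0076). The groups did not overlap for these 3 genes. EGR2, at 1.44 and 1.43 against 1.87 and 1.66 RPKM, passed narrowly (0.18, SE 0.06, adjusted p = 0.046), and 203 reads in a library were its most. Its call was lost without any 1 of the 4 libraries, with adjusted p from 0.071 to 0.27.

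The other NB4 members did not pass. JUN was at 27.3 and 28.1 RPKM with shNS and at 29.6 and 30.1 RPKM with shM14 (0.10, adjusted p = 0.13). JUND was at 43.2 and 45.0 against 42.7 and 40.6 RPKM (-0.08, adjusted p = 0.26). IER2, at 78.4 and 78.7 against 77.8 and 76.6 RPKM, had an adjusted p of 0.67, and ATF3, whose groups overlapped at 4.01 to 4.23 RPKM, one of 0.75. FOSB was too low to be tested, at 23 and 35 reads against 43 and 39.

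Beside the 5 of 9 members called higher, 22.1% of all 11531 genes tested in NB4 were called higher and 25.2% lower. The median change was 0.18 for the 9 members and -0.01 for all tested genes. Both knockdown libraries exceeded both controls for 7 of the 10 members, the untested FOSB included, and for 37.2% of tested genes. For JUND and IER2 both knockdown libraries were below both controls. The authors' deposited table gave 43.6% of its genes an adjusted p under 0.05 in NB4, counting both directions. It gave 6 members one, all with a higher value in the knockdown. The sixth was JUN, with a log2 fold change of 0.13 and adjusted p of 0.017 in the authors' deposited table. The NB4 calls rest on the spread of the NB4 libraries. With all 8 libraries in 1 model, which adds the MM6 replicates to the spread, limma called 0 members. FOS then had a limma adjusted p of 0.64. That model also called fewer of all genes in NB4, 713 of 12804 higher and 945 lower.

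**Figure D4:**
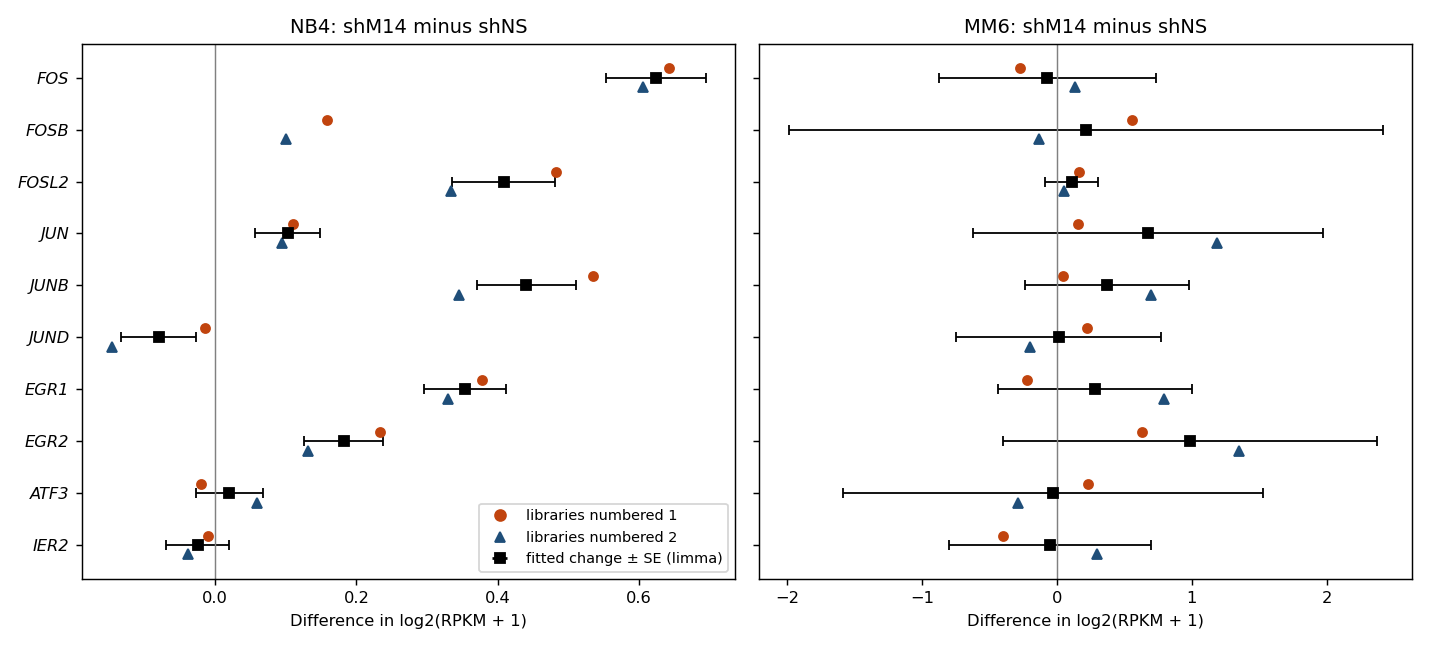
Change with METTL14 knockdown, shM14 minus shNS in log2(RPKM + 1), in NB4 (left) and MM6 (right, a wider horizontal scale); squares are the fitted change with its SE, circles and triangles the differences between libraries numbered 1 and 2. FOSB has no fitted change in NB4, where it was not tested. The SE are 0.04 to 0.07 in NB4 and 0.20 to 2.20 in MM6.

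In MM6 no change of these factors with METTL14 knockdown passed the test. JUN was at 201 and 16.9 RPKM with shNS and at 224 and 39.96 RPKM with shM14 (0.67, SE 1.30, adjusted p = 0.88). FOS was at 671 and 161 RPKM against 555 and 177 RPKM (-0.07, SE 0.80). JUNB was at 301 and 93.5 against 311 and 153 RPKM, JUND at 210 and 72.5 against 246 and 62.8 RPKM, and IER2 at 427 and 103 against 323 and 126 RPKM. The groups overlapped for every member. Even FOSL2, with the closest replicates at 42.2 and 34.2 against 47.4 and 35.6 RPKM, had an adjusted p of 0.87.

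By limma 0 of 10 members passed and 0 had an unadjusted p under 0.05, beside 1779 of all 11895 genes tested. Voom on the recovered reads also called 0. The authors' deposited table gave 0 members an adjusted p under 0.05 (3.28% of its genes, either direction). The background of limma calls was low too, with 0.0504% of tested genes higher and 0.0252% lower. Within the libraries numbered 1 the RPKM ratio of shM14 to shNS was 0.826 for FOS, 0.855 for EGR1 and 1.12 for JUN. Within those numbered 2 it was 1.10, 1.74 and 2.36. EGR2 was higher with shM14 within both numbers (1.57 and 4.04), as were JUN, JUNB and FOSL2. No label says that a number pairs libraries. With the replicate number in the model all the same, limma called 1 of 10 members, EGR2 (0.99, SE 0.18, adjusted p = 0.026). That fit called 5% of all 11895 tested genes higher, and 810 genes lower.

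Over both lines together, an additive limma fit called 0 of 10 members, as did voom. Limma called 4.8% of genes higher and 7.1% lower. It had 0 members at an unadjusted p under 0.05, beside 3788 of all 12804 genes tested. FOSL2 had the lowest adjusted p (0.26, SE 0.12, adjusted p = 0.20). Without the MM6 libraries numbered 1, EGR1 (0.50, adjusted p = 0.034) and JUNB (0.53, adjusted p = 0.018) were called, with 6.42% of genes higher and 8.13% lower. Without those numbered 2, FOSL2 was called (0.33, adjusted p = 0.045), with 7.99% of genes higher and 12.8% lower, as it was without MM6 shM14 replicate 2 alone (0.37, adjusted p = 0.044).

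The difference between lines, MM6 change minus NB4 change, was called for 0 of 10 members by limma (background 1.53% higher, 1.39% lower) and 0 by voom. Limma had 0 members at an unadjusted p under 0.05, beside 2511 of all 12804 genes tested. The difference depended on the MM6 pair read. Without the libraries numbered 1, 3 members had a higher change in MM6: EGR2 by 1.17, JUN by 1.09 and IER2 by 0.32 (background 10.2% higher, 8.38% lower). Without those numbered 2, EGR2 (0.45) and FOSB (0.43) had a higher change in MM6 (background 8.36%), and FOS (-0.90), EGR1 (-0.58) and IER2 (-0.38) a lower one (background 11.9%). In these fits only NB4 supplies the spread, and the single MM6 library of each group is assumed to vary like an NB4 library. IER2 thus changed sides with the pair read.

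Genes around these factors were described from 5 lists, whose NB4 counts stand beside 22.1% of all tested genes called higher and 25.2% lower. Of 16 tested AP-1 relatives in NB4, 7 rose, 2 fell and 7 did not pass (median 0.10). BATF rose by 0.78 and ATF5 by 0.41, while BATF2 fell (-0.80). The EGR corepressors NAB1 (-0.10) and NAB2 (-0.06) did not pass, and EGR3 and EGR4 were too low to be tested in NB4. Of 22 upstream regulators 7 rose, 2 fell and 13 did not pass (median 0.05). The SRF partner ELK3 (0.34) and the kinases MAP2K1 (0.29) and MAP2K2 (0.30) were among those that rose, and MKL2, an SRF coactivator, fell (-0.33).

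Of 33 other early response genes tested in NB4, 18 rose, 7 fell and 8 did not pass (median 0.22). The kinases SGK1 (2.17) and PIM1 (1.58), IER3 (1.51) and the phosphatase DUSP2 (1.04) had the smallest p. The 7 of 33 that fell are near the share of all genes called lower. Of 18 genes known as AP-1 or EGR targets, 15 rose, 2 fell and 1 did not pass (median 0.62). The matrix protein THBS1 rose from 3.62 and 3.31 to 62.7 and 63.5 RPKM (3.84, adjusted p = 8.6e-05). By p-value ICAM1 (2.18), CCL2 (2.04) and SPP1 (1.78) followed. This list holds genes already known to rise in these libraries and is not independent evidence of a direction.

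In MM6, limma fitted without the replicate number called 0 genes of the 5 lists (17, 4, 21, 37 and 16 tested), as did voom. By limma 3, 0, 3, 3 and 11 had an unadjusted p under 0.05, beside 1779 of all 11895 genes tested. Median changes were -0.06 for AP-1 relatives, 0.56 for EGR relatives, 0.04 for upstream regulators, 0.35 for other early response genes and 0.88 for the targets, against -0.03 over all genes. SGK1 was at 19.2 and 10.7 against 110.0 and 45.6 RPKM (2.23). EGR3, at 9.99 and 0.0256 against 39.03 and 0.830 RPKM, was split by replicate as EGR2 was. SPP1 had the lowest adjusted p of the targets (3.23, adjusted p = 0.063). With the replicate number in the model, limma called 28 of 95 list genes higher in MM6 and 2 lower. That fit called 595 of all 11895 tested genes higher and 810 lower, and no label pairs the numbers. With all 8 libraries in 1 model, 9 of 100 list genes were called higher and 2 lower in MM6. Of all 12804 genes tested, that model called 538 higher and 773 lower.

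**Figure D5:**
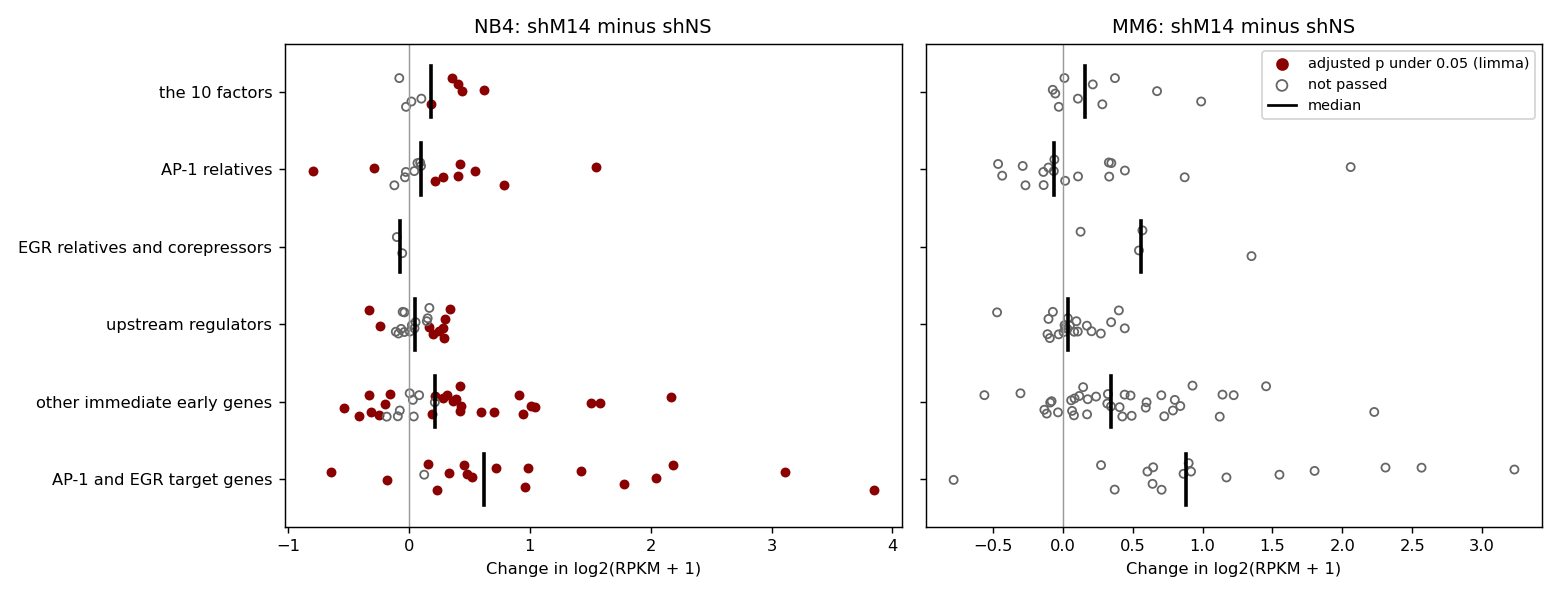
Change with knockdown in log2(RPKM + 1) for each tested gene of the 10 factors and the 5 related lists, in NB4 (left) and MM6 (right, another horizontal scale); filled points passed limma's adjusted p under 0.05, open ones did not, and black bars are medians. In NB4 15 of 18 target genes rose and 5 of 9 factors, and in MM6 no point is filled.

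The genes whose profile over the 8 libraries was most like that of a member were ranked by Pearson's r of log2(RPKM + 1) over 12804 genes, as a description. For FOS these were TTC28, LAMC1, ZFP36, COL7A1 and HBQ1 (r from 0.995 to 0.9997). For JUN they were EGR2 (0.989), SIK1 (0.984), MIR8085, ST7-AS1 and PPP1R15A. For EGR1 they were TMEM212-AS1, ZFP36 (0.992), YAP1, KLF11 and ID1. The libraries fall into NB4 and MM6 and, within MM6, by replicate number, so few independent points lie behind each r.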

How the data were processed

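The authors deposited 1 table per cell line. The authors' RPKM columns hold, as deposited, gene reads scaled to gene length and to the reads assigned to genes in each library, a unit worked out from the values. Signal columns hold the authors' group means of size-factor scaled reads; a ratio column and a log2 column hold the authors' fold change, and p-value columns the authors' p and adjusted p, per the file headers. Aligner, genome build and counting strand are not stated in the sources at hand, so overlapping or antisense genes are less certain. RPKM and group means resolved into whole reads for 100% of values (tolerance 0.01), giving depths. Depth was 23272126 to 28814911 reads, and SE cover the spread between libraries.

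Genes at 1 RPKM or more in at least 2 of the fitted libraries were tested on log2(RPKM + 1) with limma 3.58.1 (R 4.3.3), Benjamini-Hochberg threshold 0.05, two-sided: each line alone, control lines, both lines additively, and the interaction. Log2 changes understate those of low genes. Tests were checked on simulated data that held no replicate gaps like those of MM6, so the check does not cover such gaps. Python 3.11.15 made summaries. Members, lists and rules were chosen with earlier results of these data known. Named genes are the members, METTL14, up to 4 genes per list and line by smallest p, and the 5 most alike genes of FOS, JUN and EGR1; KLF6, NR4A1, DUSP1 and the marker genes were named after their values were seen. A result that met the naming rule is not reported here. CTGF matched no row, and 4 of 9 other-cell markers were measured. Promoters came from RefSeq tables (13 windows, 10 of 10 members).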

Additional observations from a re-analysis of the deposited data

Results flagged for a closer look

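Of 100 tested genes of the related lists, 8 changed differently in the lines by limma's interaction test (MM6 change minus NB4 change, log2(RPKM + 1)), where 1.53% of all genes were called higher and 1.39% lower. Of these 8, the naming rule covers ICAM1, ELK3, IER5 and MAF, and the others were MMP9 (-0.90), PLAU (-1.11), VEGFA (0.83) and CCND1 (0.65). In MM6, MMP9 was at most at 0.503 RPKM and CCND1 at most at 0.0301 RPKM, too low to be tested there alone. Their differences therefore mostly carry the NB4 changes of 0.72 and -0.64 with the sign turned. ICAM1, an adhesion molecule, differed by -1.91 (SE 0.21, adjusted p = 0.012), with changes of 2.18 in NB4 and 0.27 in MM6. ELK3 differed by -0.81 (SE 0.14, adjusted p = 0.039), with both shM14 libraries above both controls in NB4 and below both in MM6. IER5 differed by 0.81 (SE 0.13, adjusted p = 0.031), with changes of -0.32 in NB4 and 0.49 in MM6. MAF differed by 0.85 (SE 0.14, adjusted p = 0.033), at 0.401 and 0.310 RPKM with shNS and 1.70 and 1.28 RPKM with shM14 in MM6, while its NB4 libraries were all at or below 0.0381 RPKM.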

How the results depend on the processing

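Members called in NB4 (5) became 0 with all 8 libraries in 1 model and 4 without any 1 library. With the replicate block, limma called 4 in NB4, 1 in MM6 (EGR2, 0.99, SE 0.18, adjusted p = 0.026, where 5% of genes were called higher), 0 over both lines, 0 for the difference and 6 between controls. The SE of FOS in MM6 was 0.80 without the block and 0.13 with it, and METTL14 in MM6 passed with it (adjusted p = 0.0089). No label pairs the numbers: replicate gaps of the 2 groups correlated over genes at 0.70 in MM6 and 0.08 in NB4. In MM6, 0 members were called without any 1 library. Over both lines (0) the count was 0 to 1 without 1 library, 2 without the MM6 libraries numbered 1 and 1 without those numbered 2, and for the difference 0, 3 and 5. Between controls (6) it was 3 with no filter and 3 to 9 without 1 library. Genes of the 5 related lists called in NB4 (60) and MM6 (0) were 13 and 11 with all 8 libraries in 1 model. They were 57 and 30 with the block, and 39 to 48 and 0 to 2 without 1 library. In MM6 the 30 were 28 higher and 2 lower, beside 595 of all 11895 tested genes higher and 810 lower. The 11 were 9 higher and 2 lower, beside 538 of all 12804 higher and 773 lower. In NB4 the 13 were 11 higher and 2 lower, beside 713 of all 12804 higher and 945 lower. The 57 were 44 higher and 13 lower, beside 2433 of all 11531 higher and 2808 lower. Why the counts moved was not tested.

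Signs also turned. ATF3 in MM6 (-0.03) was 0.0153 with median-of-ratios scaling. Over both lines ATF3 (-0.0040) was 0.0182 with that scaling, 0.0125 with voom and 0.0898 without the MM6 libraries numbered 2, JUND (-0.03) 0.0222 without those numbered 2, and IER2 (-0.04) 0.0822 without those numbered 1. For the difference FOSB (0.09) was -0.19 with a pseudocount of 0.1, -0.12 with voom and -0.26 without those numbered 1; IER2 (-0.03) was 0.0069, 0.0092 and 0.32 with scaling, voom and without those numbered 1. Also without those numbered 1, JUNB was 0.26, JUND -0.12 and EGR1 0.44, and without those numbered 2 ATF3 was 0.21. Between controls ATF3 was -0.0569 with voom.

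Without 1 library at a time, changes in MM6 ran from -1.10 to 0.95 for FOS, -2.53 to 2.96 for FOSB, -0.094 to 0.31 for FOSL2, -1.07 to 2.42 for JUN, -0.46 to 1.21 for JUNB, -0.96 to 0.99 for JUND, -0.76 to 1.33 for EGR1, -0.80 to 2.78 for EGR2, -1.71 to 1.91 for ATF3, -1.08 to 0.97 for IER2, -0.36 to 3.58 for EGR3 and -0.16 to 1.73 for EGR4. Over both lines they ran from -0.0641 to 0.76 for FOS, -0.93 to 1.26 for FOSB, -0.37 to 1.03 for JUN, -0.43 to 0.35 for JUND, -0.0926 to 0.74 for EGR1, -0.21 to 1.22 for EGR2, -0.78 to 0.78 for ATF3 and -0.45 to 0.37 for IER2. The difference ran from -1.72 to 0.33 for FOS, -2.66 to 2.83 for FOSB, -1.17 to 2.32 for JUN, -0.91 to 0.77 for JUNB, -0.88 to 1.07 for JUND, -1.12 to 0.97 for EGR1, -0.98 to 2.60 for EGR2, -1.99 to 1.89 for ATF3 and -1.05 to 0.99 for IER2. Between controls JUN ran from -0.68 to 2.81, EGR2 from -0.26 to 3.32 and ATF3 from -1.43 to 1.94, and ATF3 in NB4 from -0.0028 to 0.043.

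The planned edgeR fit was not run because the deposited columns hold no counts; voom on the recovered reads was run. The fits without the MM6 libraries of 1 number were chosen after the data were seen. With 1 library left in a group, that library is assumed to vary like the others.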
